A study of Bubalus bubalis with 12 samples.

Results

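NR5A1, also called steroidogenic factor 1, and NR5A2, also called liver receptor homolog 1, were followed in the regressing corpus luteum (CL) of buffalo cows. Their members were all probe sets of the Bovine Genome Array that the platform annotation assigned to NR5A1 or NR5A2, whatever their values, with each probe set kept on its own. That gave 5 of 24016 probe sets, 4 for NR5A1 and 1 for NR5A2, and 2 of the 9155 genes that the annotation named singly. The CL arises from the follicle after ovulation and is the ovary's source of progesterone. Cows with normal cycles were given cloprostenol, an analogue of prostaglandin F2α (PGF2α), at 500 µg by intramuscular injection on day 11 of the cycle, and whole CL was taken 3, 6 or 18 h later. The controls, called 0 h, were CL of the same cycle day from cows that the labels list as untreated. Counted by the biological replicates of the labels, there were 4 animals at 0 h, 2 at 3 h, 3 at 6 h and 3 at 18 h, with 1 array per animal. The 2 animals at 3 h carried the replicate numbers 1 and 3. No vehicle-injected group was analysed here, and the labels give neither the age nor the breed of the cows.

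NR5A1 and NR5A2 are orphan nuclear receptors that bind, as monomers, nearly the same extended DNA element, and they share targets among the genes of cholesterol uptake and steroid synthesis. NR5A1 is needed for the formation of the gonads and adrenals and is expressed in theca, granulosa and luteal cells. NR5A2 is expressed in granulosa and luteal cells of the ovary and in liver, gut and pancreas, and mice whose granulosa cells lack it do not ovulate and form no functional CL.

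All values below are log2 signals made by robust multichip average (RMA), so a difference of 1 is a 2-fold difference in signal. The probes were designed on cattle sequence and each probe set binds with its own strength, so levels were compared between times for 1 probe set. Between probe sets, changes were compared, and the size of a change can also depend on the probe set. A difference was called at an adjusted p under 0.05 from limma, adjusted by the Benjamini-Hochberg method over all 24016 probe sets. Array medians lay between 7.09 and 7.17, and precision was limited by how few arrays each time had. The tissue carried the transcripts of steroidogenic luteal cells: 11 of 12 marker genes of these cells were measured, and their mean level lay between 11.9 and 12.2 in the controls. Control replicate 3 stood apart from the other controls on the first principal component, which held 42.8% of the variance, at -13.8 against -48.8 to -35.8, with the 6 h and 18 h arrays at 16.3 to 37.9. The 2 arrays at 3 h were also apart from each other, at -29.6 and 1.89. Control replicates 1 and 4 differed by over 2-fold at 6 probe sets, against 220 to 1306 in the other pairs of arrays within a time. The labels number them as separate biological replicates, and they were kept as 2 arrays. Whether they are independent was not tested, and if they are not, the 0 h group holds less information than its 4 arrays. With the 2 averaged, 1376 probe sets were called at 6 h and 1856 at 18 h, against 2724 and 2964 with both kept.

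Both genes were down regulated at 6 h and at 18 h after PGF2α. Of the 5 probe sets, 3 were called lower at 6 h and the same 3 at 18 h, which were the 2 brightest for NR5A1 and the 1 for NR5A2. Over all probe sets, 6.08% were called lower at 6 h and 6.63% at 18 h. The brightest NR5A1 probe set was lowest at 6 h, at 2.79-fold below the control, and NR5A2 was lowest at 18 h, at 3.96-fold below it. The difference between 6 h and 18 h was not called for either (adjusted p = 0.810 and 0.279, limma). No NR5A probe set was called higher at any time. In whole tissue, fewer cells of a type and less RNA per cell cannot be told apart.

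NR5A1 was read most brightly by probe set Bt.23195.1.S1_a_at, whose mean lay above that of 81.4% of probe sets. At 0 h its signal was 10.45, 10.23, 9.22 and 10.40 in replicates 1 to 4. At 3 h it was 9.81 and 9.38, at 6 h it was 8.66, 8.47 and 8.65, and at 18 h it was 8.81, 9.11 and 8.67. Every 6 h and 18 h array was below every control, although control replicate 3, the lowest control, came within about 0.11 of the highest 18 h array. The signal fell by 1.48 ± 0.26 (SE) at 6 h (95% CI -2.05 to -0.91, adjusted p = 0.0063, n = 3 against 4, limma). At 18 h it was still lower by a log2 difference of -1.21 ± 0.26 (95% CI -1.78 to -0.64, adjusted p = 0.0112, limma), a 2.31-fold fall.

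The second NR5A1 probe set, Bt.23195.2.S1_at, followed the first closely: after each was set to its own control mean, they differed by a median of 0.08 and by at most 0.22 on the 12 arrays. Its signal was 10.20, 9.80, 8.97 and 10.15 at 0 h, 9.51 and 9.21 at 3 h, 8.37, 8.29 and 8.58 at 6 h, and 8.67, 8.97 and 8.42 at 18 h. The 6 h arrays were all below the controls, while 18 h replicate 2 and control replicate 3 were both at 8.97, so the groups touched there. The log2 difference from 0 h was -1.37 ± 0.26 at 6 h (adjusted p = 0.0084, limma) and -1.10 ± 0.26 at 18 h (adjusted p = 0.0184, limma). The names of both probe sets share the number of 1 transcript cluster, so they are not 2 independent readings of the gene. The 18 h call of the second probe set was lost in 6 of 21 other settings, with an adjusted p of up to 0.0749 (leaving out control replicate 1 or 4, or replicate 1 or 3 at 18 h, among them).

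The other 2 NR5A1 probe sets did not pass the test at any time. Bt.7422.1.S1_at read 8.45, 8.50, 8.09 and 8.64 at 0 h, 8.57 and 7.93 at 3 h, 7.77, 8.09 and 7.95 at 6 h, and 7.92, 8.15 and 8.10 at 18 h. Its arrays were mostly lower after treatment, but its groups overlapped in every comparison with the controls. Its log2 difference was -0.48 ± 0.17 at 6 h (95% CI -0.85 to -0.11, adjusted p = 0.0929, limma) and -0.36 ± 0.17 at 18 h (95% CI -0.73 to 0.01, adjusted p = 0.201, limma). The upper end of the fall allowed by the 6 h interval, 1.80-fold, was below the lower end for the brightest probe set, 1.88-fold. The 6 h difference passed the test without control replicate 3, without either 3 h array and with array weights, where its adjusted p reached 0.0109.

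Bt.29769.1.A1_at was dim, with a mean above that of only 8.96% of probe sets. It read 4.20 to 4.30 at 0 h, 4.25 to 4.62 at 3 h, 4.12 to 4.33 at 6 h and 4.19 to 4.30 at 18 h. Its groups overlapped throughout, and its log2 difference from 0 h was 0.02 ± 0.10 at 6 h and 0.01 ± 0.10 at 18 h. The 95% intervals of these differences, -0.20 to 0.25 and -0.21 to 0.24, did not reach the falls of the 2 bright probe sets. RMA pulls differences at low signal toward 0, and no probe sequence was used here to place any of the 4 probe sets on the NR5A1 transcript.

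NR5A2 was read by Bt.10845.1.S1_at alone. At 0 h its signal was 10.39, 9.53, 9.77 and 10.15 in replicates 1 to 4. At 3 h it was 10.18 and 9.04, at 6 h it was 8.64, 9.13 and 8.68, and at 18 h it was 8.33, 7.89 and 7.70. The 6 h arrays lay below all controls, and the 18 h arrays lay below all 6 h arrays, so that 0 h, 6 h and 18 h did not overlap. The log2 difference from 0 h was -1.15 ± 0.28 at 6 h (95% CI -1.76 to -0.53, 2.21-fold lower, adjusted p = 0.0247, limma) and -1.98 ± 0.28 at 18 h (95% CI -2.60 to -1.37, adjusted p = 0.0015, limma). The 18 h call held in all 21 other settings run. The 6 h call was lost in 7 of them, with an adjusted p of up to 0.0928 (leaving out control replicate 1 or 4, or replicate 1 or 3 at 6 h, among them).

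**Figure D1:**
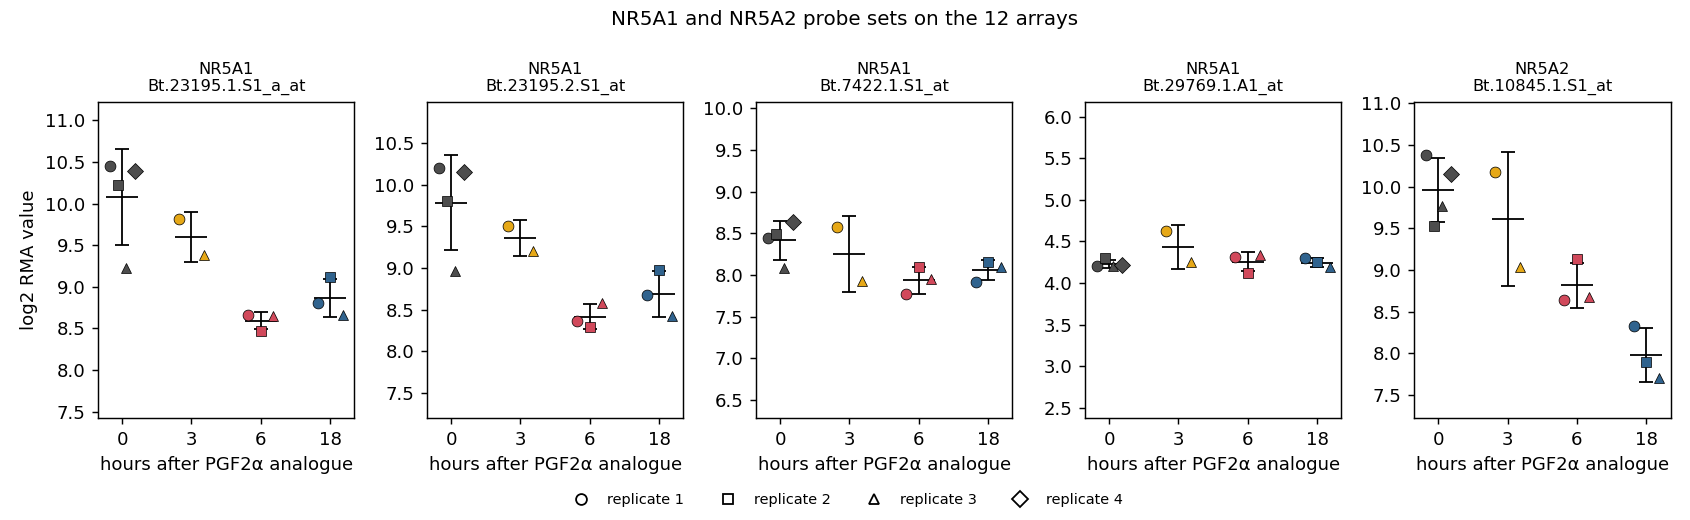
Log2 RMA signal (vertical axis, 3.8 log2 units tall in every panel but starting at a different level) of the 5 NR5A probe sets by hours after the PGF2α analogue (horizontal axis). Each point is 1 array, its shape gives the replicate number, and bars are the mean ± SD of the 4, 2, 3 and 3 arrays. The 2 brightest NR5A1 probe sets and NR5A2 lie lower at 6 h and 18 h, the third NR5A1 probe set overlaps with its controls, and the dim one stays between 4.12 and 4.62.

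At 3 h, 0 of the 5 probe sets were called by limma. An unadjusted p under 0.05 was reached by 0 of the 5 and by 2376 of all 24016 probe sets. Over all probe sets 0.0167% were called lower at 3 h, so this comparison called almost nothing on the array. Both 3 h arrays of NR5A1 lay between control replicates 2 and 3, and the log2 difference was -0.48 ± 0.29 (95% CI -1.12 to 0.17, adjusted p = 0.635, limma) for the brightest probe set. NR5A2 differed between the 2 animals: replicate 1 was inside the control range and replicate 3, at 9.04, was below every control. The NR5A2 difference was -0.35 ± 0.32 (95% CI -1.05 to 0.34, adjusted p = 0.764, limma), and leaving out 1 of the 2 arrays gave -0.92 or 0.22. A fall of about 2-fold at 3 h was thus inside the interval of both genes.

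Taken in order, the level of the 2 bright NR5A1 probe sets went from 0 h through 3 h and 18 h down to 6 h, and that of NR5A2 from 0 h through 3 h and 6 h down to 18 h. No neighbouring pair in either order differed past the threshold. Between 6 h and 18 h, 0 of the 5 probe sets were called by limma, while 0.192% of all probe sets were called lower. An unadjusted p under 0.05 was reached by 1 of the 5, that of NR5A2, and by 2725 of all 24016. NR5A2 was lower at 18 h than at 6 h by a log2 difference of -0.84 ± 0.30 (95% CI -1.5 to -0.18, adjusted p = 0.279, limma) with no overlap of the arrays. The brightest NR5A1 probe set was higher by 0.27 ± 0.28 (95% CI -0.34 to 0.88, adjusted p = 0.810, limma), again with no overlap, though its closest 6 h and 18 h arrays were at 8.66 and 8.67. Between 3 h and 6 h, 0 of the 5 were called by limma against 0.0541% of all probe sets called lower. An unadjusted p under 0.05 was reached there by 3 of the 5 and by 3017 of all 24016. The log2 difference there was -1.0 ± 0.31 (adjusted p = 0.210) for the brightest NR5A1 probe set and -0.79 ± 0.33 (adjusted p = 0.358) for NR5A2.

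Between 3 h and 18 h, 1 of the 5 probe sets was called lower, that of NR5A2, where 1.11% of all probe sets were. Its 18 h arrays lay below both 3 h arrays and the log2 difference was -1.63 ± 0.33 (95% CI -2.37 to -0.90, adjusted p = 0.0276, limma). That call was lost in 7 of 21 other settings, with an adjusted p of up to 0.147, among them those without 3 h replicate 1 and without any one of the 18 h replicates. NR5A1 differed by -0.73 ± 0.31 between these times (adjusted p = 0.266, limma), and it passed the test without control replicate 3 (adjusted p = 0.0361). A moderated F test over all 3 comparisons with 0 h called the same 3 probe sets that were called at 6 h and 18 h, with an adjusted p of 0.0053 for NR5A2, 0.0121 for Bt.23195.1.S1_a_at and 0.0178 for Bt.23195.2.S1_at, and 10.9% of all probe sets passed it.

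Whether NR5A1 and NR5A2 fell by different amounts was tested on their difference within each array, with the brightest probe set of NR5A1. The 4 NR5A1 probe sets themselves gave 6 h differences from -1.48 to 0.02. A difference between the genes thus cannot be told apart from one between probe sets. At 6 h NR5A1 had fallen further than NR5A2 by 0.33, with a two-sided exact permutation p of 0.314 over 35 splits of the 7 arrays. At 18 h NR5A2 had fallen further than NR5A1 by 0.77 (exact permutation p = 0.114, smallest possible 0.0286). At 3 h the difference of changes was -0.13 (exact permutation p = 0.867, smallest possible 0.0667). Between 6 h and 18 h NR5A1 moved up against NR5A2 by 1.11. The within-array difference, relative to its control mean, was 0.37 to 1.11 at 18 h and -0.77 to -0.09 at 6 h, which did not overlap, but with 3 arrays against 3 the exact permutation test cannot go below its observed p of 0.1. After adjustment over these 4 comparisons no p was under 0.229. Over the 4 times together, a test chosen after the data were seen gave F = 3.42 and an exact permutation p of 0.0816 over 277200 arrangements. When NR5A1 was taken as the mean of its 4 probe sets, the 18 h difference was 1.32 with an exact permutation p of 0.0286, and the 6 h difference turned to 0.32. That mean holds the dim probe set, which stayed level, and so shows a smaller fall of NR5A1. With 3 animals at each of 6 h and 18 h, a different course of the 2 genes between these times could not pass the test.

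**Figure D2:**
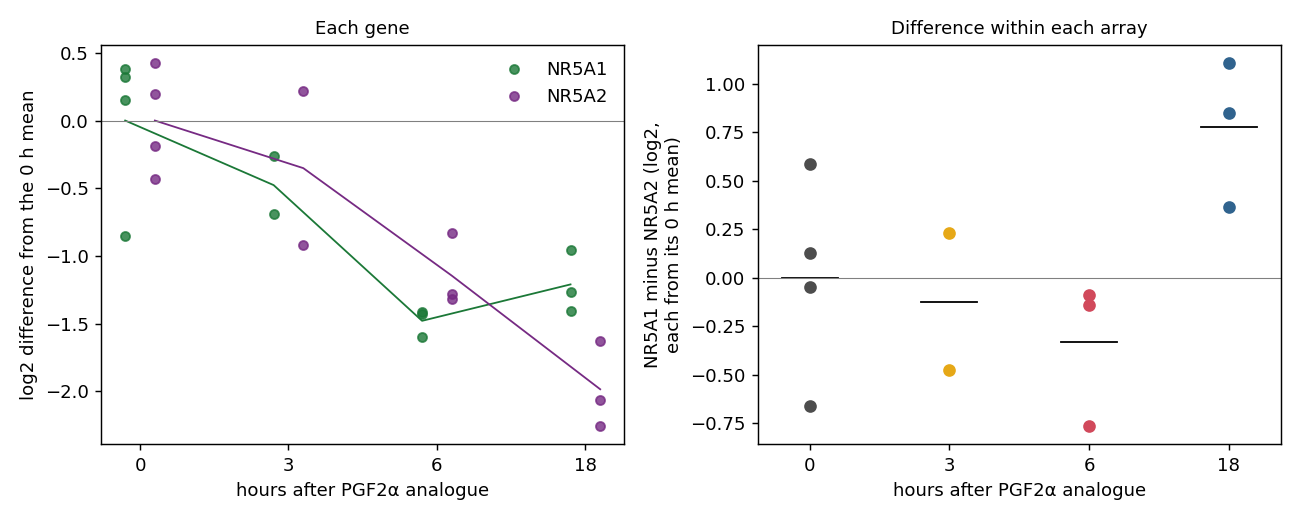
Left, log2 difference of NR5A1 (Bt.23195.1.S1_a_at) and NR5A2 from their own 0 h means on each array (points) with the mean at each time (lines), against hours after the PGF2α analogue, with the 4 times evenly spaced. Right, NR5A1 minus NR5A2 on each array, with the mean as a bar. NR5A1 was lowest at 6 h and NR5A2 at 18 h, and the difference between them was -0.77 to -0.09 at 6 h and 0.37 to 1.11 at 18 h.

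Marker levels of some cell types, though not of all, moved in the same samples. The mean level of the 11 steroidogenic luteal markers was 11.9 to 12.2 at 0 h, 11.5 to 11.8 at 6 h and 11.2 to 11.5 at 18 h, so that every 6 h and 18 h array was below every control while 6 h and 18 h overlapped. Of the 11, 1 was called lower at 6 h and 5 at 18 h, where 7.66% and 8.35% of all genes were called lower. The shares of all genes called higher were 6.55% at 6 h and 7.55% at 18 h. STAR stood between 14.71 and 14.91 in the controls and between 14.08 and 14.49 at 18 h. LHCGR, the receptor for luteinizing hormone, stood between 10.28 and 12.19 in the controls and between 7.67 and 10.15 at 18 h. The mean of 9 of 10 smooth muscle and pericyte markers was 8.84 to 9.66 at 0 h, 9.70 to 9.91 at 6 h and 9.85 to 10.2 at 18 h, and 3 were called higher at both times. Of 10 fibroblast markers, 1 was called higher at 6 h and 4 at 18 h, with mean levels of 10.5 to 11.2 at 0 h and 11.3 to 11.6 at 18 h. Endothelial means were 8.81 to 9.14 at 0 h, 9.11 to 9.33 at 6 h and 9.02 to 9.17 at 18 h, with 4 of 11 markers called higher and 1 lower at each of the later times. Macrophage means (8 of 10 measured) were 8.08 to 9.63 at 0 h and 8.82 to 9.54 at 18 h, with 1 marker called higher at 6 h and 2 at 18 h. With 1 marker each, the fibroblast and macrophage counts at 6 h lie near the share of all genes called higher. Lymphocyte means (9 of 10 measured) were 6.54 to 6.99 at 0 h and 6.50 to 6.84 at 18 h, with no marker called. Their part in the fall of NR5A1 and NR5A2 was not tested.

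The regulators that act on NR5A genes were taken from a list of 20 upstream transcription factors, of which 12 were measured. At 6 h 1 was called higher and 1 lower, and at 18 h 3 were called lower, where over all 9155 genes 7.66% were called lower and 6.55% higher at 6 h and 8.35% lower and 7.55% higher at 18 h. The median difference of the list was -0.12 at 6 h and -0.18 at 18 h, against -0.05 and -0.02 over all genes. FOXL2, a forkhead factor of granulosa cells, fell by 0.79 ± 0.19 at 6 h (adjusted p = 0.0218) and by 0.81 ± 0.19 at 18 h (adjusted p = 0.017). GATA4, a zinc finger factor of gonadal somatic cells, was at 8.94 to 8.99 at 6 h and 8.92 to 9.03 at 18 h, below all controls (9.04 to 9.68). Its log2 difference was -0.44 ± 0.13 at both times, with an adjusted p of 0.0505 at 6 h and 0.0468 at 18 h. CEBPB, a leucine zipper factor induced by gonadotropins, fell by 0.93 ± 0.27 at 18 h (adjusted p = 0.048). In 21 other settings the FOXL2 call held in 14 at 6 h and in 17 at 18 h, while the 18 h calls of GATA4 and CEBPB, close to the threshold, each held in 7.

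ATF4, a leucine zipper factor of the stress response, was the one upstream gene called higher: it read 11.25 to 11.46 at 0 h and 12.34 to 12.64 at 6 h, a rise of 1.13 ± 0.21 (adjusted p = 0.0079) that was called in all 21 other settings. At 3 h both its arrays, at 11.76 and 12.51, were above the controls, with a log2 difference of 0.76 and an adjusted p of 0.335. GATA6, NR2F2 and USF1 were not called, with log2 differences of 0.27, -0.10 and -0.37 at 6 h. CREM, a cAMP-responsive modulator, was read by several probe sets that disagreed: the brightest was not called, while 2 others fell at 6 h, by 0.85 and 0.97, and 2 at 18 h, by 0.68 and 1.58. At 3 h none of the 12 was called by limma, with 0.0218% of all genes called lower and 0.0109% higher. An unadjusted p under 0.05 was reached by 2 of the 12 and by 999 of all 9155 genes. SP1, WT1 and SOX9 were not analysed here.

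Of 30 coregulators and modifiers of NR5A proteins, 15 were measured. At 6 h 1 was called higher and 4 lower, and at 18 h 2 were called higher and 1 lower, against 7.66% of all genes lower and 6.55% higher at 6 h and 8.35% lower and 7.55% higher at 18 h. The list medians were -0.21 and -0.08, beside -0.05 and -0.02 over all genes. CITED2, a coactivator, was higher at both times: it read 10.36 to 10.59 at 0 h, 11.25 to 11.68 at 6 h and 11.41 to 11.76 at 18 h, rises of 0.95 ± 0.21 (adjusted p = 0.0145) and 1.11 ± 0.21 (adjusted p = 0.0054). NR0B1, also called DAX1, an orphan receptor that represses NR5A proteins, read 8.84, 8.03, 6.85 and 8.93 at 0 h and 7.06, 6.41 and 6.27 at 18 h. Its lowest control, replicate 3, was below the highest 18 h array, and the log2 difference was -1.58 ± 0.45 at 18 h (adjusted p = 0.041) and -1.39 ± 0.45 at 6 h (adjusted p = 0.0701). The 18 h call of NR0B1 held in 9 of 21 other settings, and a second, dimmer NR0B1 probe set was not called. The CITED2 call held in 19 of 21 at 6 h and in all 21 at 18 h.

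Called lower at 6 h were also the coactivator NCOA1 (-0.41 ± 0.10, adjusted p = 0.0272), the SUMO ligase PIAS1 (-0.41 ± 0.09, adjusted p = 0.0164), the acetyltransferase KAT2B (-0.58 ± 0.15, adjusted p = 0.0306) and the coactivator PPARGC1A (-0.38 ± 0.11, adjusted p = 0.0431). PPARGC1A was dim, at 4.63 to 5.02 in the controls, and its call held in 5 of 20 other settings, against 14 of 21 for NCOA1 and KAT2B and 17 of 21 for PIAS1. CDK7, a kinase that phosphorylates NR5A1, was called higher at 18 h by 0.51 ± 0.15 (adjusted p = 0.0488), a call that held in 5 of 21 other settings, while its second probe set differed by -0.37 and was not called. CTNNB1, β-catenin, which cooperates with NR5A proteins, differed by -0.21 ± 0.09 at 6 h (adjusted p = 0.184), and DDX20, a repressor of NR5A1, by -0.34 ± 0.17 (adjusted p = 0.251). At 3 h none of the 15 was called, where 3 of all 9155 genes were. An unadjusted p under 0.05 was reached by 1 of the 15 and by 999 of the 9155 genes. NR0B2, NCOA2, EP300 and NRIP1 were not analysed here.

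The list of genes known to carry NR5A sites or to respond to NR5A proteins held 35 genes, of which 26 were measured. At 6 h 5 were called lower and 2 higher, and at 18 h 7 were called lower and 2 higher. Over all genes the shares called lower were 7.66% at 6 h and 8.35% at 18 h, and those called higher 6.55% and 7.55%. The list medians were -0.29 at 6 h and -0.35 at 18 h, against -0.05 and -0.02 over all genes, and 22 and 20 of the 26 were below 0. Genes of this list also serve as luteal markers, so the list and the steroidogenic luteal markers are not separate evidence.

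No measured gene of progesterone synthesis was called at 6 h, and STAR, HSD3B1 and FDX1 were called lower at 18 h. STAR, the mitochondrial cholesterol transport protein, differed by -0.13 ± 0.11 at 6 h and fell by 0.46 ± 0.11 at 18 h (adjusted p = 0.0151). HSD3B1, which makes progesterone from pregnenolone, read 14.76 to 14.92 at 0 h, 14.02 to 14.57 at 6 h and 13.29 to 13.85 at 18 h. It fell by 1.35 ± 0.16 at 18 h (adjusted p = 0.0005), and it differed by -0.48 ± 0.16 at 6 h (adjusted p = 0.0726). FDX1, the electron donor of the side chain cleavage enzyme, fell by 0.66 ± 0.12 at 18 h (adjusted p = 0.0046) after a difference of -0.05 ± 0.12 at 6 h. HMGCS1, an enzyme of cholesterol synthesis, fell by 0.95 ± 0.15 at 18 h (adjusted p = 0.0022). The 18 h calls of HSD3B1, FDX1 and HMGCS1 held in all 21 other settings and that of STAR in 18. CYP11A1, the side chain cleavage enzyme itself, and SCARB1, the lipoprotein receptor, were not called, with log2 differences of -0.34 ± 0.13 (adjusted p = 0.113) and -0.33 ± 0.16 at 18 h. All 6 of these genes lay near the top of the scale in the controls, from 14.15 to 14.36 for CYP11A1 up to 14.76 to 14.92 for HSD3B1, where differences can be understated, in the genes that were called as in those that were not.

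LHCGR, the luteinizing hormone receptor, read 12.02, 11.23, 10.28 and 12.19 at 0 h, 9.46, 11.04 and 10.61 at 6 h, and 8.19, 10.15 and 7.67 at 18 h. Its 18 h arrays were below all controls and it fell by 2.76 ± 0.61 at 18 h (adjusted p = 0.0128), the steepest fall of the list at that time, which was called in 19 of 21 other settings. CYP19A1, aromatase, fell by 1.49 ± 0.25 at 6 h (adjusted p = 0.0048) and by 1.87 ± 0.25 at 18 h (adjusted p = 0.001). At 3 h both its arrays, at 7.41 and 6.16, were already below every control (8.06 to 8.66), with a log2 difference of -1.57 ± 0.28 and an adjusted p of 0.113. CYP19A1 was read by 4 probe sets, and the other 3, all dimmer, were not called. The calls of the brightest held in all 21 other settings at both times. At 3 h none of the 26 was called, where 3 of all 9155 genes were. An unadjusted p under 0.05 was reached by 6 of the 26 and by 999 of the 9155 genes.

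CYP17A1, the enzyme of androgen synthesis, fell by 1.17 ± 0.30 at 6 h (adjusted p = 0.0298), although control replicate 3, at 6.47, lay within the 6 h range of 6.16 to 6.58 and the other controls at 7.62 to 7.99, and the call held in 13 of 21 other settings. HSD17B1 and VNN1 were called lower at 6 h only, with log2 differences of -0.57 ± 0.13 and -1.17 ± 0.28 there, and the difference between 6 h and 18 h was not called for either. CCND1, cyclin D1, was called lower at both times (-0.90 ± 0.16 and -1.08 ± 0.16) and CCNE1, cyclin E1, higher at both (0.49 ± 0.10 and 0.39 ± 0.10). In the controls HSD17B1 (6.05 to 6.60) and CCNE1 (6.60 to 6.73) read below the array medians, as did CCND1 at 6 h (6.09 to 6.24). INHBA, the βA subunit of activin and inhibin, moved the other way from most of the list and by far the most: it read 7.68 to 8.44 at 0 h and 11.78 to 13.48 at 6 h, a rise of 4.77 ± 1.0 (adjusted p = 0.0132) that was called in 17 of 21 other settings. At 3 h its 2 arrays were far apart, at 7.29 in replicate 1 and 12.96 in replicate 3. INHA, the α subunit, was not called, with a difference of -0.99 ± 0.30 at 18 h (adjusted p = 0.0554).

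**Figure D3:**
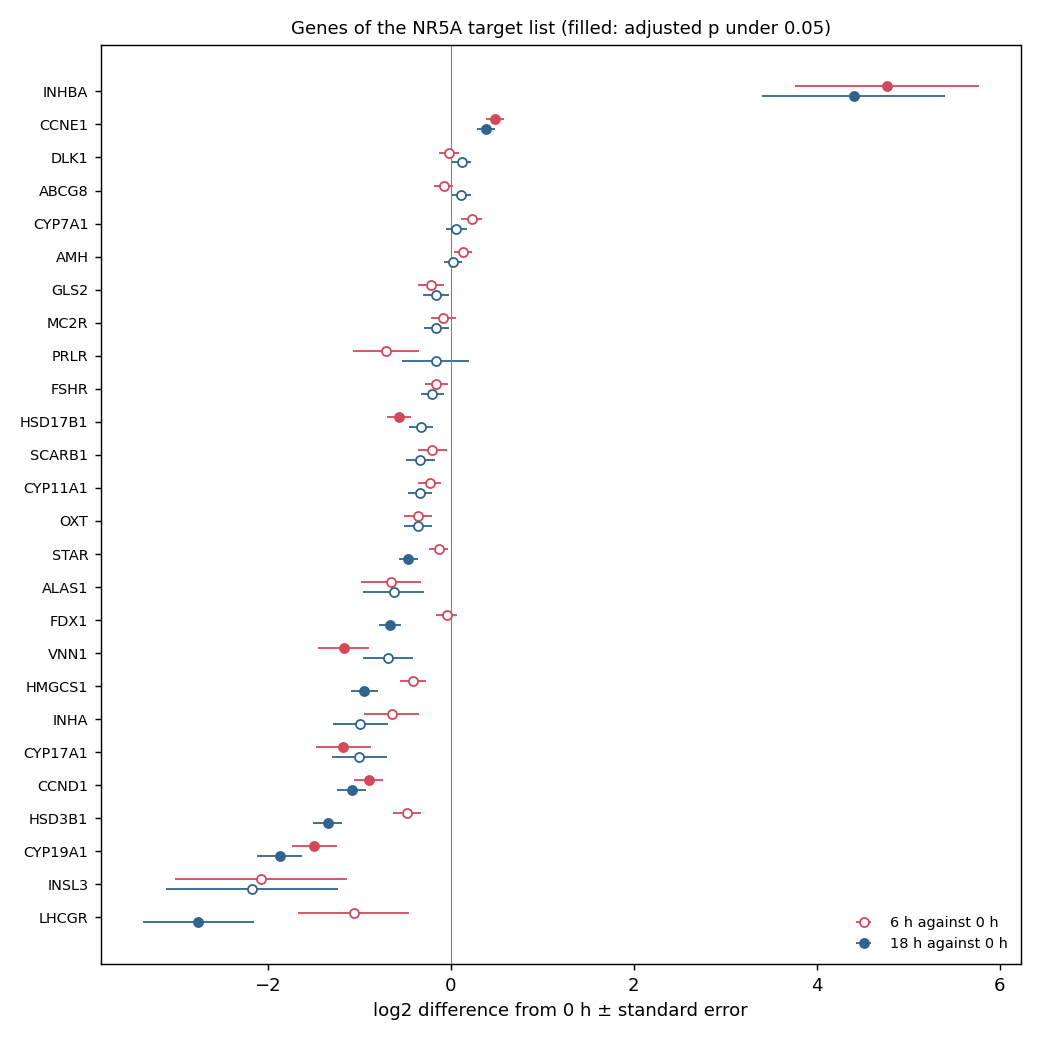
Log2 difference from 0 h (horizontal axis, ± standard error of the limma fit) of the 26 measured genes of the NR5A target list at 6 h and 18 h, ordered by the 18 h value. Filled points had an adjusted p under 0.05. HSD3B1, FDX1, STAR, HMGCS1 and LHCGR are filled at 18 h alone, CYP19A1 and CCND1 at both times, and the filled points above 0 belong to INHBA and CCNE1.

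Among other nuclear receptors, 26 of 46 were measured, and 3 were called lower and 0 higher at 6 h and at 18 h, with list medians of -0.10 and -0.07. These counts lay near the shares of all genes called lower, 7.66% at 6 h and 8.35% at 18 h, and the medians over all genes were -0.05 and -0.02. The remaining 23 were not called at 6 h, and neither were 23 at 18 h. NR3C1, the glucocorticoid receptor, fell by 0.86 ± 0.18 at 6 h (adjusted p = 0.0117) and by 0.80 ± 0.18 at 18 h (adjusted p = 0.0133). NR1H3, the liver X receptor α, fell by 0.75 ± 0.18 at both times (adjusted p = 0.0237 and 0.0212). THRA, thyroid hormone receptor α, fell by 0.58 ± 0.15 at 6 h (adjusted p = 0.0308), and the third receptor at 18 h was NR0B1. The NR3C1 calls held in 19 of 21 other settings at each time, and those of NR1H3 and THRA in 12. NR4A1, an orphan receptor of the immediate early response that shares DNA elements with NR5A proteins in steroidogenic promoters, read 11.02 and 12.88 at 3 h against 10.37 to 11.73 at 0 h and was not called at any time. At 3 h none of the 26 was called, where 3 of all 9155 genes were. An unadjusted p under 0.05 was reached by 3 of the 26 and by 999 of the 9155 genes. ESRRA and NR6A1 were not analysed here.

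The genes whose pattern was most like each NR5A gene were found by the mean absolute difference over the 12 arrays, after each probe set was set to its own 0 h mean, among 8948 named genes. For NR5A1 these were DCP1B, a factor of mRNA decapping, at 0.17, HABP4, a hyaluronan and RNA binding protein, at 0.20, HEXIM1, an inhibitor of the elongation factor P-TEFb, at 0.21, ZMYM3, a zinc finger protein, at 0.21, and CCDC8 at 0.22. DCP1B was low in control replicate 3, as NR5A1 was, at 10.03 against 10.83 to 11.52 in the other controls. It fell by 1.58 at 6 h and 1.28 at 18 h. Since DCP1B was picked for closeness on these arrays, the likeness follows from that choice. For NR5A2 they were MVD, an enzyme of the mevalonate pathway, at 0.25, PIM2, a serine/threonine kinase, at 0.28, BCAR3, an adaptor protein, at 0.28, FAM174B at 0.29, and TADA3, a subunit of histone acetyltransferase complexes, at 0.31. MVD fell by 1.16 at 6 h and by 1.78 at 18 h, and FAM174B by 1.24 and 2.28.

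The nearest genes shared the order of times of their own NR5A gene with some exceptions. They were chosen for closeness on these same arrays, so that likeness follows from the choice. DCP1B, HABP4, ZMYM3 and CCDC8 were lowest at 6 h, as NR5A1 was, while HEXIM1 was lowest at 18 h. MVD, PIM2, FAM174B, TADA3 and BCAR3 were lowest at 18 h, as NR5A2 was, although BCAR3 differed by only -0.05 between 6 h and 18 h. NR5A1 and NR5A2 were at 0.45 from each other, which placed NR5A2 at rank 208 from NR5A1 and NR5A1 at rank 70 from NR5A2. These distances are a description over arrays that share the same controls.

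**Figure D4:**
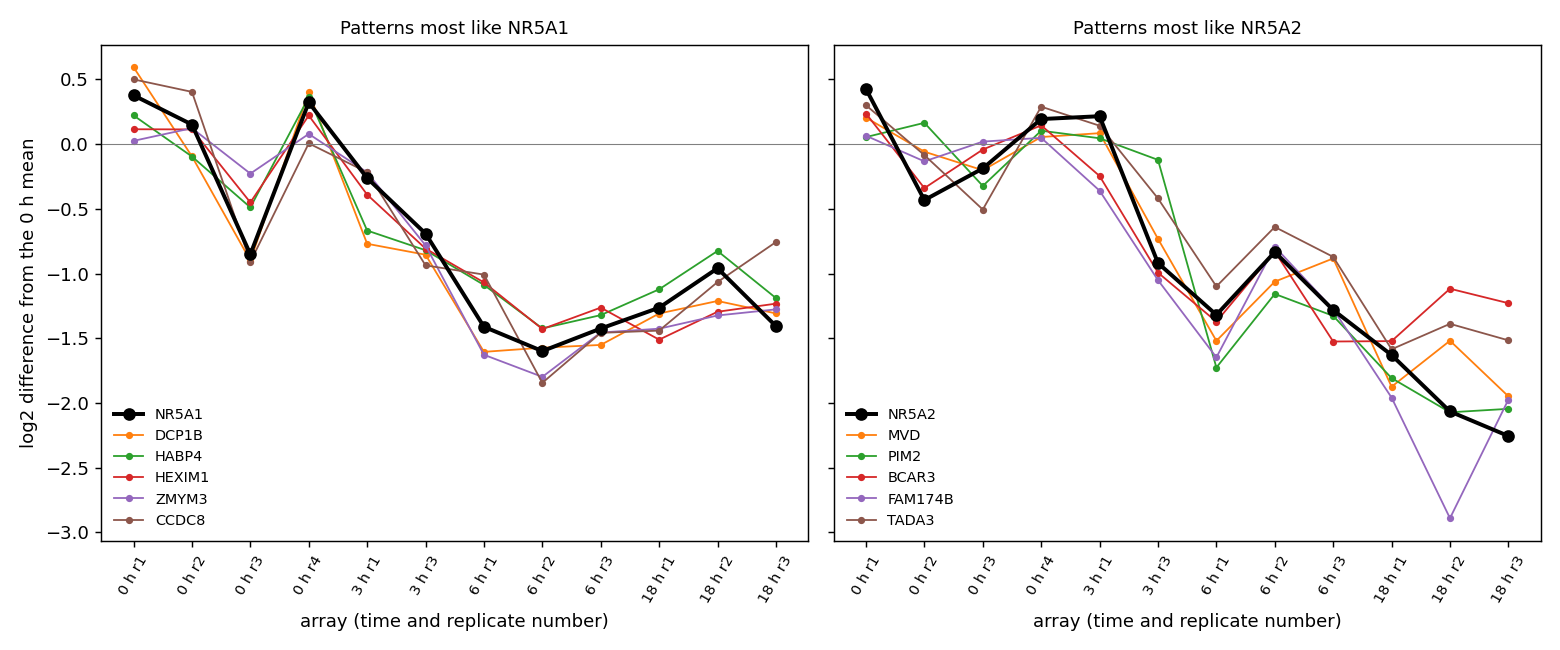
Log2 difference from the 0 h mean (vertical axis) on each of the 12 arrays, named by time and replicate number (horizontal axis), of NR5A1 and NR5A2 (black) and the 5 genes closest to each. In the NR5A1 set control replicate 3 is the lowest control, least so for ZMYM3, and the genes lie near NR5A1 at 6 h and 18 h. In the NR5A2 set 3 h replicate 3 lies below 3 h replicate 1, least so for PIM2. The genes were chosen for closeness on these same arrays.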

How the data were processed

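Expression was measured in whole CL of 12 buffalo cows on the Affymetrix Bovine Genome Array. The authors deposited log2 values made by RMA per the labels, which corrects background, normalizes arrays together and summarises probes. Neither the version of RMA nor its chip definition is stated in the sources at hand, and the scanner files were not used. The table held 24128 probe sets, and 112 control probe sets were left out. The platform annotation, of cattle genes, gave 13292 probe sets a single symbol, 86 several and 10638 none. For genes other than NR5A1 and NR5A2, 1 probe set was used, that with the highest mean. Some of these genes had more, among them NCOA1, KAT2B and PPARGC1A with 4 each and LHCGR with 3. FOXL2, CEBPB, NR3C1, NR1H3, VNN1 and CCNE1 had 2 each. Where the text does not mention the other probe sets of a gene, their values are not given here.

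The 4 time means were fitted to 24016 probe sets on all 12 arrays with limma 3.58.1 in R 4.3.3 (lmFit, contrasts.fit, eBayes), two-sided, with Benjamini-Hochberg adjustment within each comparison over all probe sets, and ± values are standard errors of the fit. Adjusted p-values of single genes in the text come from this fit. The difference between NR5A1 and NR5A2 was tested by exact permutation of arrays (Python 3.11.15, scipy 1.17.1). The fit was tested on simulated data at 6 h against 0 h over 24016 probe sets, with 50 probe sets changed per size. Of those lowered by 1, 88% were recovered, of those raised by 1, 78%, and of those raised by 0.5, 22%. Of the probe sets called there, 6.08% were false. Noise was drawn independently for each array, so these rates leave out the likeness between real arrays, such as control replicates 1 and 4.

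Named genes were the up to 5 lowest p-values of each list at each time, 15 genes of steroidogenesis and NR5A regulation where measured, and the 5 closest patterns, besides others named in the text after their values were seen (CREM, VNN1). Members and lists were chosen with earlier results of these data known. Planned motif and protein comparisons were not made, since no sequence was used here. The settings varied were removal of the 40% of probe sets with the lowest means, repeated quantile normalization, median centring, eBayes with trend and robust, array weights, a fit of only the times compared, the mean of a gene's probe sets, control replicates 1 and 4 averaged, the replicate number as a block, each array left out in turn and, chosen after seeing the data, control replicates 3 and 4 left out together. Same-numbered arrays did not deviate together (correlations of deviations from the time means -0.26 to 0.19), so the numbers were not taken as pairs.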

Additional observations from a re-analysis of the deposited data

Results flagged for a closer look

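Among 62 sets of 4 control values, those of the probe sets and genes named above, 2 held 1 value far from the others. That is no more than the about 1 in 20 that chance gives. Both were in control replicate 3. HEXIM1 read 11.21 there against 11.77 to 11.88 in the other controls. It was picked for closeness to NR5A1, whose lowest control was also replicate 3, so its low value is no separate evidence. INSL3, a peptide hormone of theca and luteal cells and a known NR5A1 target, read 9.48 there against 13.18 to 13.45. INSL3 was not called at 6 h or 18 h, at -2.07 ± 0.94 and -2.17 ± 0.94. Without control replicate 3 it was called lower at both times, at -3.03 (adjusted p = 0.0098, limma) and -3.13 (adjusted p = 0.0073), and it was also called with array weights and with control replicates 3 and 4 left out together. In the other 18 of 21 settings it was not called at either time, and over all 21 its adjusted p ran from 0.0098 to 0.401 at 6 h and from 0.0073 to 0.435 at 18 h. The change of NR5A2 from 0 h differed between 3 h and 18 h, by a log2 difference of -1.63 (adjusted p = 0.0276, limma).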

How the results depend on the processing

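In 21 other settings each, the brightest NR5A1 probe set was called lower at 6 h (differences of -1.76 to -1.35) and 18 h (-1.49 to -1.08), as was NR5A2 at 18 h (-2.16 to -1.84), and the second NR5A1 probe set at 6 h (-1.64 to -1.23). With 1 array left out, 2 to 4 of the 5 NR5A probe sets were called at 6 h, 2 to 3 at 18 h, 2 to 3 by the F test, 0 to 1 between 3 h and 6 h and 0 to 2 between 3 h and 18 h, where the count was 0 with array weights, with only the 2 times fitted and with the replicate block. The block also ended the 18 h call of the second NR5A1 probe set and the 6 h call of NR5A2. Over all probe sets it left 870 calls at 6 h and 1480 at 18 h against 2724 and 2964. Array weights gave 5692 and 5608, with the highest weights on the closely alike control replicates 1 and 4, at 2.24 and 1.93. The NR5A1 minus NR5A2 change with 1 array left out was -0.55 to -0.12 at 6 h, 0.55 to 0.98 at 18 h, 0.89 to 1.31 between 6 h and 18 h and, changing sign, -0.48 to 0.23 at 3 h. With the mean of a gene's probe sets it was 1.32 at 18 h and turned to 0.32 at 6 h and 0.14 at 3 h, where the block gave 0.23.

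List counts moved more, in settings where calls over all 24016 probe sets moved too. Those calls, 2724 at 6 h and 2964 at 18 h, became 5692 and 5608 with array weights, 870 and 1480 with the block and 1376 and 1856 with averaging. With 1 array left out they ran from 1168 to 3589 at 6 h and from 1542 to 3867 at 18 h. Whether the lists moved apart from this was not tested. For upstream factors the list counts were 4 at 6 h with gene means, 1 with the replicate block or controls 1 and 4 averaged, and at 18 h 1 with quantile normalization or averaging and 0 with the block (1 to 4 and 0 to 4 with 1 array left out). For coregulators they were 8 at 6 h with array weights, 1 with the block, 2 with averaging and 2 without controls 3 and 4, and at 18 h 6 with array weights and 1 with trend and robust, only 2 times, the block or averaging (1 to 7 and 1 to 4 with 1 array left out, 0 to 1 at 3 h). For target genes they were 3 at 6 h with the block and 15 at 18 h with array weights (2 to 8 and 5 to 14, and 0 to 2 at 3 h). For other nuclear receptors they were 6 and 8 with array weights, 0 and 0 with the block, 1 and 1 with averaging, and 1 at 18 h with gene means (0 to 4 and 0 to 5, and 0 to 1 at 3 h). The cause was not tested. The number of arrays, 2 at 3 h, limits every comparison, and NR5A2 rests on 1 probe set.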

Other observations

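The genes that flank NR5A1 and NR5A2 in the buffalo assembly NDDB_SH_1 were compared where the array named them, within 3 genes on either side. NEK6 and PSMB7 lie beside NR5A1, and their log2 differences at 6 h were 0.37 ± 0.19 (adjusted p = 0.265, limma) and -0.01 ± 0.10. DDX59 and PTPRC lie beside NR5A2, and their differences at 18 h were -0.25 ± 0.13 (adjusted p = 0.257, limma) and -0.02 ± 0.24. None of these 4 genes was called at 3, 6 or 18 h against 0 h.

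The choice of distance changed the closest patterns little. By Euclidean distance the same 5 genes were closest to NR5A1, and for NR5A2 MPP1 took the place of BCAR3. With each probe set set to its mean over all 12 arrays, FAM162A took the place of CCDC8 for NR5A1 and the same 5 genes were closest to NR5A2. The ranks of the 2 NR5A genes from each other moved more. NR5A2 was at rank 236 from NR5A1 by Euclidean distance and at 784 with this centring, against 208. NR5A1 was at ranks 58 and 144 from NR5A2, against 70.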
